A study of Mus musculus with 30 samples.

Results

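The 9 genes described here, Cd79a, Cd79b, Ms4a1, Ebf1, Pax5, Vpreb1, Igll1, Jchain and Mzb1, mark B cells and their descendants, and were taken by symbol from a table of 35727 genes measured in sorted haematopoietic stem cells (HSCs) of mouse bone marrow. All 9 were in the table and all 9 had a normalized count of at least 10 in at least 3 of the 30 libraries. Libraries came from wild-type (WT) mice at 2 months (n = 4), 1 year (n = 5) and 2 years (n = 4), from mice labelled IL1R1 KO at 2 months (n = 3), 1 year (n = 4) and 2 years (n = 5), and from germ-free mice (by the labels, of the bowel) at 2 months (n = 3) and 1 year (n = 2). No treatment is named for any group, and neither the knockout allele, the strain, the sex nor the sort markers are given in the sources used here. By the series title, the study asked about interleukin-1 and the microbiome in the ageing of HSCs. Normalized counts are the authors' values, scaled between libraries but not for gene length, and levels of different genes were compared only per kb of exon.

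B cells are made from HSCs through lymphoid progenitors in the bone marrow. Ebf1 and Pax5 are transcription factors that start and hold the B-cell programme. Igll1 (lambda 5) and Vpreb1 form the surrogate light chain of the pre-B-cell receptor, Cd79a and Cd79b are the signalling chains of that receptor and of the mature B-cell receptor, and Ms4a1 encodes CD20, a surface protein of B cells. Jchain joins the chains of polymeric IgM and IgA, and Mzb1 is a chaperone of the endoplasmic reticulum that helps immunoglobulin assembly in plasma cells and marginal-zone B cells. Recombined immunoglobulin genes belong to B-lineage cells, and each clone uses 1 heavy-chain variable gene and usually 1 light-chain variable gene.

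The bases just before the starts of Cd79a, Ebf1, Igll1 and Jchain are shown because the results turn on these members. They come from RefSeq on GRCm38.p6, run 5′ to 3′ on each gene's strand, leave out bases annotated as exon, and have E-boxes (CANNTG, read on both strands, the site of E proteins that act with Ebf1 in early B cells) in capitals. They span chr7:24897247-24897380 (plus strand), chr11:44619978-44620227 (plus strand, the start further downstream of 2), chr16:16863986-16864235 (minus strand) and chr5:88527898-88528147 (minus strand).
Cd79a: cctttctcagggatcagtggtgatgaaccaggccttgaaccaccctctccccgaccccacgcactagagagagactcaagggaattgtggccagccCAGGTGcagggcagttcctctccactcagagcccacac
Ebf1: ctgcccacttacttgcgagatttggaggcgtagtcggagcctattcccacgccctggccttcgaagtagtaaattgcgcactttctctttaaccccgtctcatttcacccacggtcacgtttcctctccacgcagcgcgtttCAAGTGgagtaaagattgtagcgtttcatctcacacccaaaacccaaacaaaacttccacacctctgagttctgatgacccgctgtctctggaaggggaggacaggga
Igll1: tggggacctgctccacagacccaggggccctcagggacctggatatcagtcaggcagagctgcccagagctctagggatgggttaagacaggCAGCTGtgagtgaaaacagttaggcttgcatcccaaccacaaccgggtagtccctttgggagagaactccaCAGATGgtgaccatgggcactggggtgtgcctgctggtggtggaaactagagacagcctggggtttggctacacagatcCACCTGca
Jchain: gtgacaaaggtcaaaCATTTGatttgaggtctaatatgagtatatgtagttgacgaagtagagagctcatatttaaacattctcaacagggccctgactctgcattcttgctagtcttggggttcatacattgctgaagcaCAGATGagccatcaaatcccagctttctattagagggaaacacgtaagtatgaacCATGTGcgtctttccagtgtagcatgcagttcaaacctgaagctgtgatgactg
Igll1 and Jchain each held 3 E-boxes in these windows, and Cd79a and Ebf1 each held 1. An E-box is a short motif, and 66.2% of 32851 RefSeq promoters held one in the 250 bases before the start. The palindrome of the Ebf family (TCCC, then 2 bases of any kind, then GGGA) was in 0.779% of promoters and in none of the 7 windows of the 6 members that RefSeq's table held and that are examined here (these 4, Pax5 and Vpreb1). Only this exact palindrome was searched for, so a window without it may still hold other forms of the site. A match is only a match of letters, and the data hold no measure of binding.

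Depth was 15.6 to 56.3 M reads per library (median 29.6 M), estimated by taking the commonest low value of each library as 1 read. That value was 0.523 to 1.78 normalized counts. Only 10.9% to 18.3% of low values were whole multiples of it, so depths and read equivalents are rough. A value below about 2 normalized counts is thus at most a few reads, and can be part of 1. At 0, no read was assigned at this depth. All 10 HSC markers listed (such as Procr, Hlf and Slamf1) were present in every group, with summed levels from 89080 to 122285 normalized counts. Il1r1, the gene named by the knockout label, was not lower in libraries with that label (medians 247, 251 and 300 normalized counts at 2 months, 1 year and 2 years) than in WT (162, 243 and 264), so directions given for IL1R1 KO libraries rest on the label. A gene total cannot reveal that only some exons are missing. The IL1R1 KO 1 year replicate 1 library carries 1 year in its title and 2 months in its age label, and was kept at 1 year. Among the 10 libraries of 2 months, 6 (WT replicates 2 and 4, IL1R1 KO replicates 1 and 3, germ-free replicates 1 and 3) held 23626 or more normalized counts of Mpo, the myeloperoxidase of granulocyte precursors, against at most 3075 in the other 4. The labels do not tie replicates to separate animals, and the spread between libraries may be in part technical. In these bulk libraries, fewer cells of a type and less of its RNA per cell cannot be told apart.

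Some libraries had nearly the same profile of immunoglobulin variable genes. Over 345 heavy and kappa variable genes, the profiles of 435 pairs of libraries had a median Pearson correlation of 0.02, and 3 pairs stood above 0.9 while the fourth reached 0.66. WT 2 months replicates 2 and 4 correlated at 0.996 and shared all 10 of their top variable genes. Ighv1-39 stood at 1999 and 1415 normalized counts in these 2 libraries, and Igkv6-23 at 3072 and 2615. Of the 10 leading genes, replicate 4 held a median of 80.6% of the level in replicate 2 (range 46.9% to 96.6%). Over all tested genes, the same 2 libraries correlated at 0.936 and ranked only 247th among the pairs, so the 2 tables are not copies of each other. The pair is therefore alike in its variable genes and not unusually alike over all tested genes. For Jchain and the constant regions Ighm, Igha and Igkc, replicate 4 held 72.3% to 89.9% of the level in replicate 2. For Iglc1, Iglc2 and Iglc3 it held 45.4% to 46.8%, and Ighd was at 38.1 normalized counts in replicate 2 and 0 in replicate 4.

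The other 2 pairs joined a rich library to a poor one from another group. WT 2 months replicate 1 held a median of 1.07% (range 0.773% to 1.31%) of the level of the top 10 variable genes of WT 2 years replicate 1 (r = 0.92). IL1R1 KO 1 year replicate 1 held a median of 4.11% (range 1.40% to 8.96%) of those of WT 1 year replicate 1 (r = 0.90). Germ-free 1 year replicate 1 held 4.95% (range 2.00% to 8.42%) of the same WT 1 year genes, although its whole profile correlated less (r = 0.34). In each case the poorer library lies in the next column of the deposited table from the richer one. Why these profiles are alike was not tested. The tests were repeated without the 3 poorer libraries and, apart from that, with WT 2 months replicates 2 and 4 averaged into 1 sample, and these values are given beside the members and the called genes that use them.

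**Figure D1:**
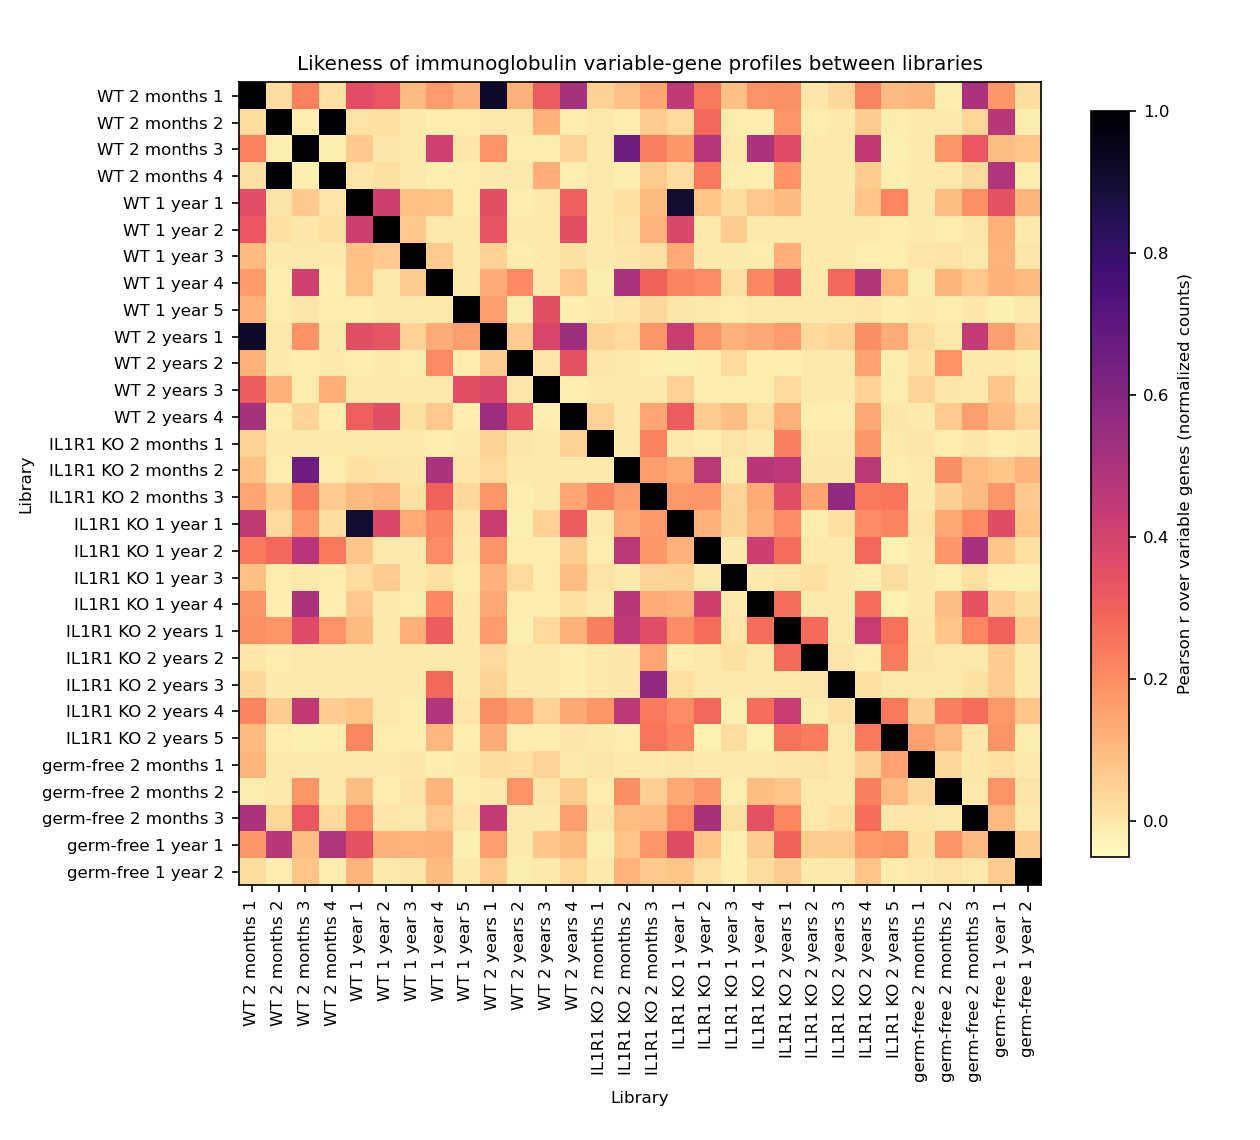
Pearson correlation of normalized counts over 345 immunoglobulin variable genes between all pairs of the 30 libraries, with libraries on both axes and colour from pale (near 0) to black (1). The 3 dark squares off the diagonal are WT 2 months replicates 2 and 4 (0.996), WT 2 months replicate 1 with WT 2 years replicate 1 (0.92), and WT 1 year replicate 1 with IL1R1 KO 1 year replicate 1 (0.90).

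**Figure D2:**
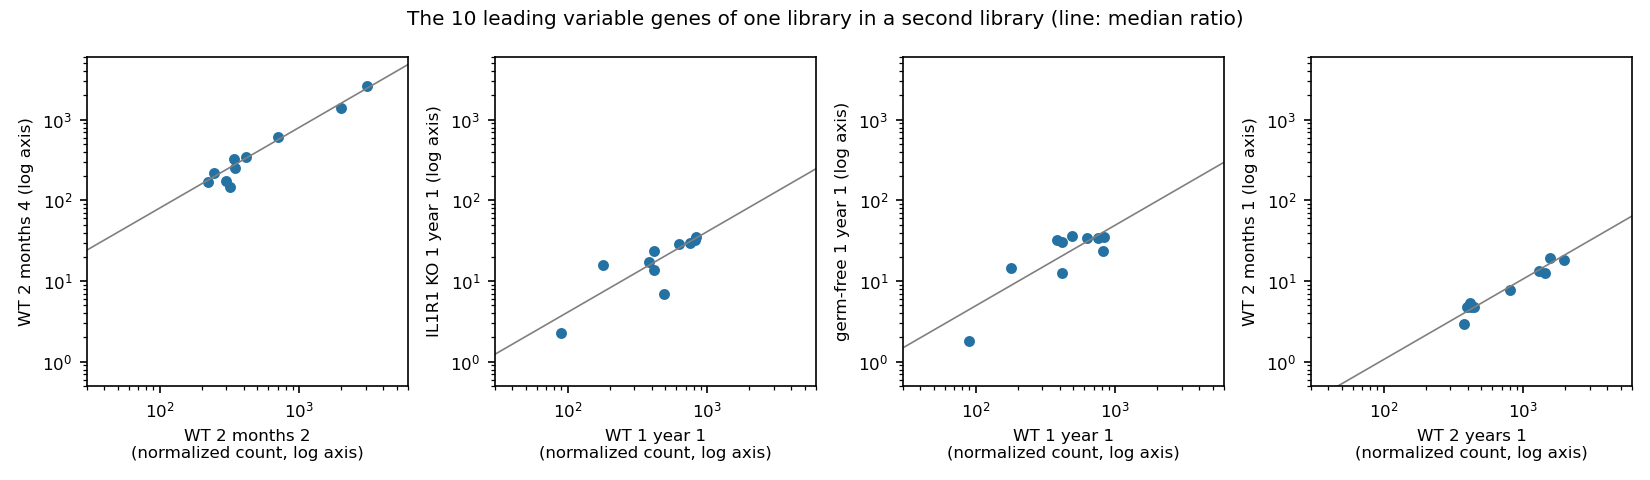
Normalized counts of the variable genes in 4 pairs of libraries, 1 point per gene on log axes, with a line at the median ratio of the 10 leading genes. Points of WT 2 months replicates 2 and 4 lie along a line at 80.6%, and those of the other pairs along lines at 1.07%, 4.11% and 4.95%.

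The 9 members lay at very different levels. Per kb of exon, median levels over the 30 libraries were 932 normalized counts for Cd79b, 153 for Jchain, 33.4 for Cd79a, 9.28 for Ms4a1 and 1.45 for Ebf1. Cd79b, the only member high in every library, ranged from 1083 to 1748 normalized counts with a coefficient of variation of 11.9%. Jchain in contrast ranged from 3.60 to 4521 normalized counts. Igll1 was listed at 0 in 13 libraries, Pax5 in 11, and Ebf1 and Mzb1 in 5 each. These 4 genes were thus not seen in some libraries at this depth, and the other 5 were found in all 30.

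**Figure D3:**
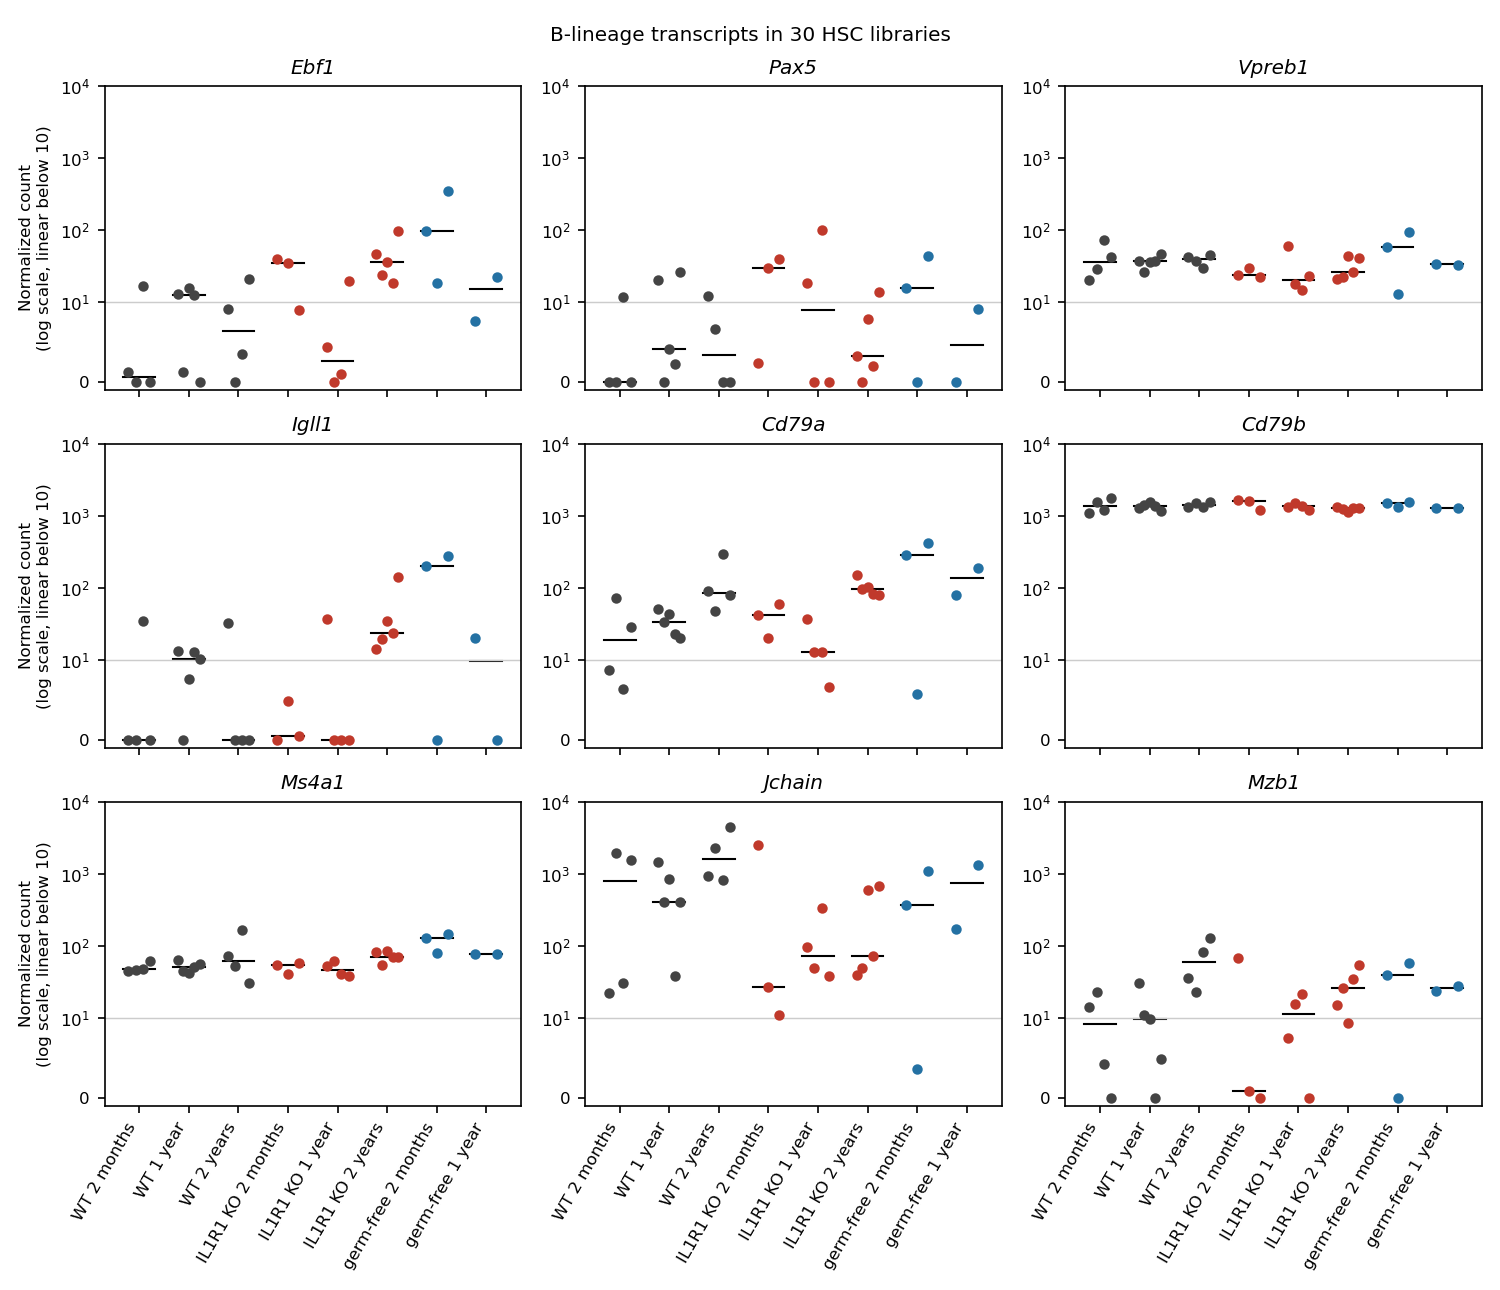
Normalized count of each member in every library, by group; points are libraries, bars are group medians, the axis is linear up to 10 and logarithmic above, and the grey line marks 10. Cd79b sits between 1083 and 1748 in all 30 libraries, while Jchain spans 3.60 to 4521 and Igll1 reaches 280 only in germ-free mice at 2 months.

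Between groups, 1 of the 135 tests of members (9 genes in 15 comparisons) passed an adjusted p of 0.05 by limma, and 17 had an unadjusted p under 0.05. The test is a linear model on log2(normalized count + 1), adjusted over 16958 genes in each comparison, and differences are on that scale, which understates the change of low genes. The called difference was Ebf1, higher in germ-free than in WT mice at 2 months. In that comparison 0.601% of all tested genes were called, and 0.301% were called higher. In the other 14 comparisons limma called 0 of the 9 members, with 0 to 3 at an unadjusted p under 0.05. For counts at that unadjusted p, here and below, the share over all tested genes was not computed. Over all tested genes, the share called was 10.7% at 1 year and 5.55% at 2 years against 2 months in WT, and 0.0118% at 2 years against 1 year. It was 2%, 8.02% and 0.177% for the same steps in IL1R1 KO, and 2.1% for 1 year against 2 months in germ-free mice. Between IL1R1 KO and WT it was 0.407%, 1.3% and 1.42% at the 3 ages, and between germ-free and WT at 1 year 4.96%. Over the 9 members the median log2 difference between germ-free and WT at 2 months was 1.18, against 0.00 over all tested genes, and 8 of 9 members had a positive difference. Members measured in the same libraries are not independent observations, so a count of signs is only a description.

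Ebf1 (ENSMUSG00000057098, chr11:44617317-45008091, plus strand, GRCm38) had the most comparisons with an unadjusted p under 0.05, 7 of 15. In WT at 2 months it stood at 1.23, 0, 16.6 and 0 normalized counts in replicates 1 to 4, and in germ-free mice of that age at 96.7, 18.01 and 348 in replicates 1 to 3. The groups did not overlap, although the lowest germ-free library lay just above the highest WT library. The log2 difference was 5.11 ± 1.2 (SE, limma adjusted p = 0.0386), and all 3 germ-free libraries were above all 4 WT libraries. Without germ-free replicate 1 or 3 the call was lost (4.11 with adjusted p = 0.249 without replicate 3, adjusted p = 0.11 without replicate 1), as it was without WT replicate 1, 2 or 4 (adjusted p = 0.0726, 0.117 and 0.128). Averaging WT replicates 2 and 4 into 1 sample gave 4.67 (adjusted p = 0.122), and leaving out the 3 libraries with low levels of another library's variable genes gave 5.06 (adjusted p = 0.0949). Without the 6 libraries rich in Mpo, which leaves 1 germ-free library at 2 months, the difference was 1.60 (adjusted p = 0.853).

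In libraries labelled IL1R1 KO, Ebf1 had its lowest median at 1 year. Values were 39.5, 34.1 and 9.03 normalized counts at 2 months, 4.28, 0, 0.972 and 19.4 at 1 year, and 45.9, 23.5, 36.1, 18.5 and 95.7 at 2 years. The 2-year libraries all lay above the 1-year libraries except for replicate 4 (18.5), which was below the highest of them (19.4). The difference between 2 years and 1 year was 3.32 ± 1.05 (SE, limma adjusted p = 0.329), in a comparison where 0.177% of genes were called. Against WT, IL1R1 KO libraries held 3.28 ± 1.2 (SE) more at 2 months and 2.77 ± 1.05 (SE) more at 2 years on the log2 scale, with limma adjusted p of 0.338 and 0.239 and 0.407% and 1.42% of genes called. The 2-year step was 3.48 (adjusted p = 0.310 by limma) without the 3 poorer libraries, and the 2-month difference from WT was 3.22 without them and 2.84 with the WT pair averaged. None of these differences passed the test. In WT at later ages Ebf1 stayed low, at 12.9, 1.25, 15.4, 12.6 and 0 normalized counts at 1 year and 9.14, 0, 3.42 and 20.9 at 2 years. Germ-free libraries of 1 year held 7.6 and 22.3. Ordered by median, the groups ran from WT at 2 months (0.616) to germ-free at 2 months (96.7), and all 7 neighbouring pairs in that order overlapped.

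Pax5 (ENSMUSG00000014030, chr4:44524757-44710487, minus strand), which acts downstream of Ebf1 to commit cells to the B lineage, followed it in some libraries only. It shares 636 and 125 exon bases with 5730488B01Rik and Gm12462 on the opposite strand, whose reads these libraries cannot tell from its own. Pax5 was listed at 0 in 3 of 4 WT libraries at 2 months (11.6 in replicate 3), and stood at 2.39, 29.03 and 39.2 normalized counts in IL1R1 KO at 2 months and at 15.4, 0 and 43.5 in germ-free mice of that age. In WT and germ-free libraries of 2 months both genes were highest in replicate 3. In IL1R1 KO at 2 months Ebf1 was highest in replicate 1 and Pax5 in replicate 3. Between IL1R1 KO and WT at 2 months the log2 difference of Pax5 was 3.08 ± 1.56 (SE, limma adjusted p = 0.538). The highest value of Pax5, 98.9, was in IL1R1 KO 1 year replicate 3, where Ebf1 was at 0.972. Across the 30 libraries the 2 genes correlated at only 0.28 on the log2 scale. No comparison of Pax5 passed the test, and the smallest adjusted p was 0.497. Of 12 other early B-cell factors (such as Tcf3, Foxo1, Ikzf1 and Spib), all 12 were tested and 2 calls were made in 15 comparisons. Foxo1, which drives Ebf1 and recombinase expression, rose by 0.68 ± 0.21 (SE, limma adjusted p = 0.0450) between 2 months and 2 years in IL1R1 KO, where 8.02% of genes were called. Ikzf1 (Ikaros, a zinc-finger factor of lymphoid cells) was 0.86 ± 0.24 (SE, limma adjusted p = 0.0348) higher in germ-free than in WT mice at 1 year, where 4.96% of genes were called. Without the 3 poorer libraries, which leaves 1 germ-free library of 1 year that is assumed to vary like the other groups, it was 0.98 (adjusted p = 0.155 by limma) and no longer called. In the other 13 comparisons limma called 0 of the 12, with 0 to 6 at an unadjusted p under 0.05.

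Vpreb1 and Igll1, the partners of the surrogate light chain, lie next to each other on chromosome 16 and differed in how often they were seen. Vpreb1 (ENSMUSG00000059305, chr16:16868403-16870843, minus strand) was above 10 normalized counts in every library (13.0 to 93.0, median 33.1). It shares 108 exon bases with Top3b on the opposite strand, whose median was 3788 normalized counts, and these unstranded libraries cannot assign reads from the shared bases. Vpreb1 and Top3b correlated at -0.03 over the libraries. No comparison of Vpreb1 passed the test, and its differences between groups lay within 0.55 on the log2 scale in either direction (SE 0.47 to 0.64).

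Igll1 (ENSMUSG00000075370, chr16:16860671-16863985, minus strand) was listed at 0 in 13 of 30 libraries, reached 10 normalized counts in 14 and was highest in 3 libraries. In germ-free mice at 2 months it was at 200.1 normalized counts in replicate 1, 0 in replicate 2 and 280 in replicate 3. In IL1R1 KO at 2 years it was found in all 5 libraries, at 13.9, 19.2, 34.5, 23.6 and 140.7. In the other groups it was at 0 in 12 of 22 libraries and no value exceeded 36.3. The 5 IL1R1 KO libraries of 2 years lay above the 3 of 2 months (0, 4.83 and 0.423) without overlap, with a log2 difference of 4.01 ± 1.64 (SE, limma adjusted p = 0.142). Against WT at 2 years (32.7, 0, 0 and 0) the difference was 3.76 ± 1.5 (SE, adjusted p = 0.280 by limma), and between germ-free and WT at 2 months (0, 0, 34.2 and 0) it was 3.98 ± 1.71 (SE, adjusted p = 0.436 by limma). None passed. The last was 3.55 both without the 3 poorer libraries and with the WT pair averaged, and turned to -2.57 without the 6 libraries rich in Mpo.

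The high germ-free libraries held other genes of pro-B and pre-B cells too. Rag1, a subunit of the recombinase that cuts antigen-receptor genes, was at 16.3, 0 and 43.4 normalized counts in the 3 germ-free libraries of 2 months and at 0 in all 7 other libraries of that age. Vpreb3, a gene of pre-B cells, was at 92.3, 16.1 and 274. Germ-free replicates 1 and 3 were thus above replicate 2 in both genes. Rag1 was the gene most like Igll1 over the 30 libraries (Pearson r = 0.78 on the log2 scale), and Ebf1 correlated with Igll1 at 0.62. Of 14 genes of the pre-B receptor, recombination and receptor signalling, 13 were tested. Syk, the kinase that carries the receptor signal and that HSCs also express, fell in WT by 0.75 ± 0.15 (SE, limma adjusted p = 0.000884) at 1 year against 2 months, and at 2 years the fall was 0.60 ± 0.15 (SE, adjusted p = 0.0165 by limma). Il7r, the interleukin-7 receptor of lymphoid progenitors, rose by 2.87 ± 0.74 (SE, limma adjusted p = 0.0141) in IL1R1 KO from 2 months (5.05, 4.15 and 5.52 normalized counts) to 2 years (68.2, 59.2, 55.0, 39.4 and 14.7), and the groups did not overlap. In the other 12 comparisons limma called 0 of the 13, with 0 to 6 at an unadjusted p under 0.05.

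Some markers of other cells (Mpo and Siglech, below) were also higher in the same 2 germ-free libraries than in replicate 2. The part of other cells in the Ebf1 and Igll1 values was not tested. Mpo was at 56547, 4.33 and 35472 normalized counts in germ-free replicates 1, 2 and 3 at 2 months. The summed level of 12 granulocyte genes ranged from 6052 to 158953 in germ-free and from 15316 to 120371 in WT libraries of that age, with 12 of 12 genes above 0 in both. For 10 markers of plasmacytoid dendritic cells, which share Spib with the early B-cell list, sums ranged from 5366 to 6461 in germ-free and from 5481 to 6385 in WT. The defining marker Siglech was at 179, 6.07 and 194 in the germ-free libraries and at most 25.5 in WT. Klk1 and Cd209d were at 0 in all WT libraries of 2 months, and Cd209d in the germ-free ones. For 14 T and NK cell genes the sums ranged from 1693 to 2904 in germ-free and from 1994 to 3336 in WT, with Gzma at 0 in all 4 WT libraries and Ncr1 in all 3 germ-free ones. The 10 erythroid markers summed to 10368 to 18094 in germ-free and 7474 to 9806 in WT. In this comparison limma called 0 genes of these 4 lists, with 0 granulocyte, 0 T and NK, 2 dendritic and 2 erythroid genes at an unadjusted p under 0.05. Over all 15 comparisons, calls higher and lower numbered 3 and 5 for granulocytes, 2 and 0 for dendritic cells, 7 and 5 for T and NK cells, 10 and 5 for erythroid cells and 14 and 5 for HSC markers. Of all tested genes, 0% to 10.7% were called in these comparisons in either direction, so these totals alone do not set a list apart.

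Cd79a (ENSMUSG00000003379, chr7:24897381-24902197, plus strand), the alpha chain of the receptor's signalling pair, varied between libraries within every age. In WT it was at 8.66, 72.4, 6.40 and 28.6 normalized counts at 2 months, at 50.0, 33.4, 43.2, 23.0 and 19.9 at 1 year, and at 90.9, 47.4, 299 and 80.1 at 2 years. All 4 WT libraries of 2 years were above 3 of the 4 of 2 months, and 1 of them (47.4) was below the fourth (72.4). The log2 difference was 2.36 ± 0.87 (SE, limma adjusted p = 0.117). It was 2.72 (adjusted p = 0.111) with WT 2 months replicates 2 and 4 averaged and 2.02 (adjusted p = 0.246) without the 3 libraries with low levels of another library's variable genes. Without the 6 libraries rich in Mpo, chosen after the data were seen, it was 3.59 (adjusted p = 0.00113), with WT replicates 1 and 3 left at 2 months.

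In IL1R1 KO, Cd79a was lower at 1 year than at 2 years without overlap. Values were 42.4, 19.9 and 59.0 normalized counts at 2 months, 36.4, 12.8, 12.6 and 6.53 at 1 year, and 152, 97.2, 102, 81.6 and 78.4 at 2 years. The difference between 2 years and 1 year was 2.72 ± 0.82 (SE, limma adjusted p = 0.266), in a comparison where 0.177% of genes were called. It was 3.16 (adjusted p = 0.161 by limma) without the 3 poorer libraries, and was called when only these 2 groups were fitted (adjusted p = 0.0219 by limma). In germ-free mice at 2 months the gene was at 290, 5.75 and 422, which held both its lowest and its highest value in the series, and at 1 year at 79.4 and 190. The difference between germ-free and WT at 2 months was 2.24 ± 0.94 (SE, limma adjusted p = 0.415). It was 1.90 without the 3 poorer libraries, 2.61 with the WT pair averaged, 4.14 (adjusted p = 0.00346 by limma) without germ-free replicate 2, and -0.33 without the 6 libraries rich in Mpo. Medians ran from 12.7 in IL1R1 KO at 1 year to 290 in germ-free mice at 2 months, and all 7 neighbouring pairs in that order overlapped.

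Cd79b (ENSMUSG00000040592, chr11:106311341-106314762, minus strand), its partner chain, behaved otherwise. Its group medians lay between 1280 (IL1R1 KO at 2 years) and 1595 normalized counts (IL1R1 KO at 2 months). The 12 differences between groups ranged from -0.23 to 0.10 on the log2 scale with SE of 0.12 to 0.17, and the smallest adjusted p in any comparison was 0.352 by limma. Cd79a and Cd79b correlated at 0.18 over the 30 libraries. The genes most like Cd79b were Trim21 (r = 0.70), an antibody receptor of the cytosol, Tmem167 (0.69), Dmkn (0.68), Trappc1 (0.67) and Farsb (0.65), and none of these is a B-cell marker. Among the 5 genes most like Cd79a were Ighd (0.75), Ly6d (0.74), Spib (0.72) and Cxcr5 (0.69). These 4 are known from B-lineage or lymphoid cells. Cd79b thus stood apart from its partner both in level and in the genes it moved with.

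**Figure D4:**
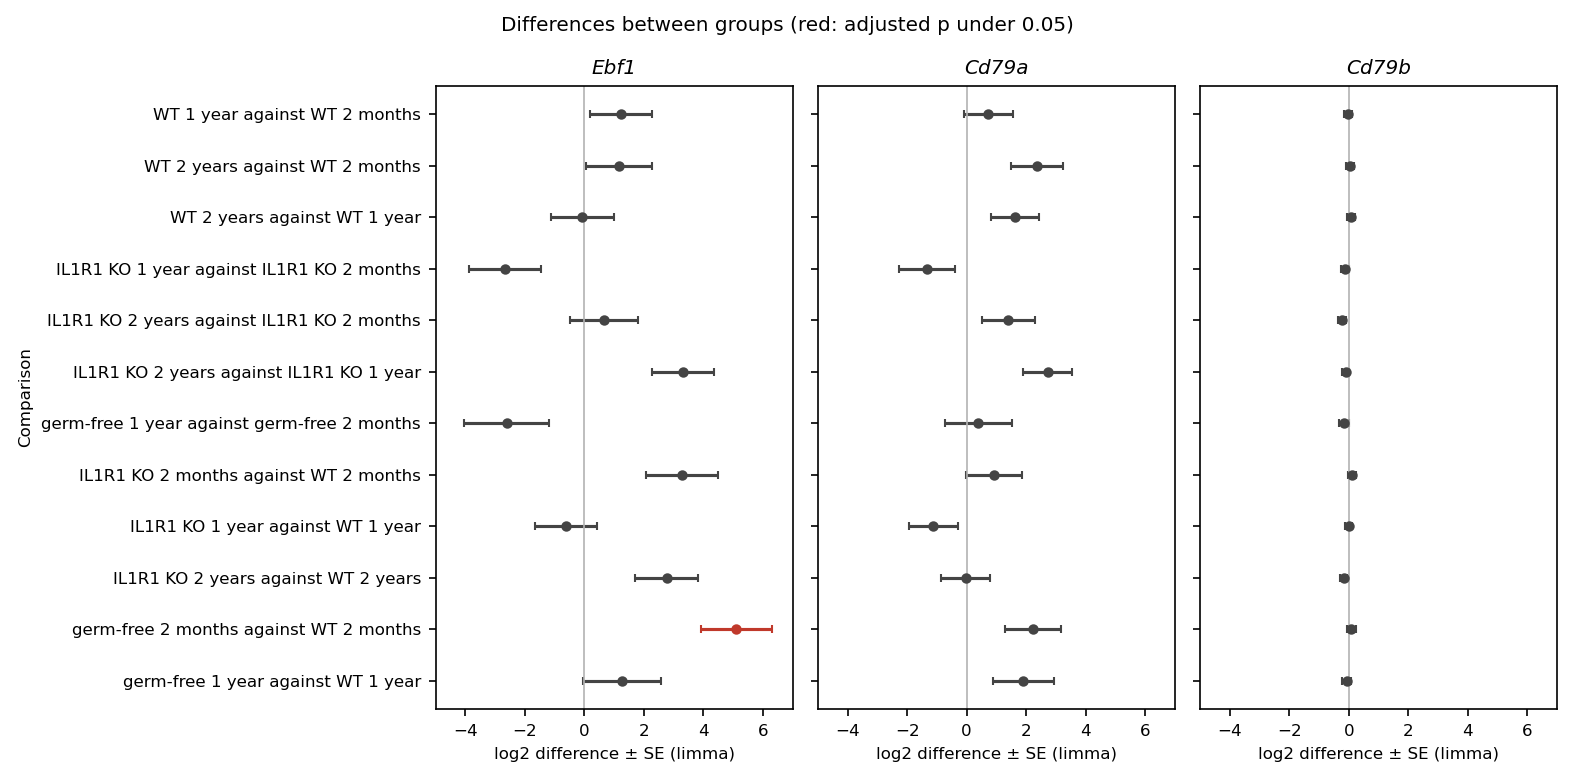
Differences between groups for Ebf1, Cd79a and Cd79b in 12 comparisons on the log2(normalized count + 1) scale; points are limma estimates, bars are ± 1 SE, and red marks an adjusted p under 0.05. Ebf1 in germ-free against WT mice at 2 months (5.11 ± 1.2) is the only red point, and all Cd79b points lie between -0.23 and 0.10.

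Ms4a1 (ENSMUSG00000024673, chr19:11249675-11266241, minus strand) was found in every library, at 30.8 to 166 normalized counts with a coefficient of variation of 46.9%. Germ-free libraries of 2 months held 128, 79.6 and 146 and those of WT 45.2, 46.4, 47.7 and 62.3. These groups did not overlap, and the difference was 1.18 ± 0.39 (SE, limma adjusted p = 0.228). It was 1.13 without the 3 poorer libraries and 1.21 with the WT pair averaged. The highest value of the gene was in WT 2 years replicate 3 (166), which also held the highest Cd79a of WT (299).

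Of 14 mature B-cell surface genes, all tested, 14 calls were made in 5 of the 15 comparisons, 3 higher and 11 lower. In these 5, from 2% to 10.7% of all tested genes were called in either direction. Cd37, a tetraspanin of leukocytes, fell in WT by 0.57 ± 0.15 (SE, limma adjusted p = 0.0131) at 1 year. In IL1R1 KO it fell by 0.65 ± 0.17 (SE, adjusted p = 0.0397 by limma) from 2 months to 1 year. From 2 months to 2 years it fell there by 0.89 ± 0.16 (SE, adjusted p = 0.000594 by limma). It also fell by 0.93 ± 0.20 (SE, adjusted p = 0.0102 by limma) between 2 months and 1 year in germ-free mice, where 2.1% of genes were called. Tnfrsf13c, the receptor of the B-cell survival factor BAFF, went in WT from 888, 484, 832 and 742 normalized counts at 2 months to 346, 362, 271 and 365 at 2 years, a fall of 1.10 ± 0.23 (SE, adjusted p = 0.00305 by limma). Siglecg, an inhibitory receptor of B cells, fell in WT by 2.67 ± 0.65 (SE, adjusted p = 0.00724 by limma) at 1 year. Cd55, a complement regulator on many blood cells, rose in WT by 0.92 ± 0.15 (SE, adjusted p = 7.1e-05 by limma) at 1 year. In the other 10 comparisons limma called 0 of the 14, with 0 to 4 at an unadjusted p under 0.05.

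Jchain (ENSMUSG00000067149, chr5:88519809-88527891, minus strand) showed the widest range of any member. In WT it was at 22.1, 1953, 30.4 and 1575 normalized counts at 2 months, at 1470, 411, 849, 37.7 and 402 at 1 year, and at 922, 2306, 826 and 4521 at 2 years. The 2 high libraries of 2 months are the pair that shares its variable genes. In IL1R1 KO it was at 2526, 26.6 and 10.8 at 2 months, at 96.3, 49.4, 337 and 38.3 at 1 year, and at 38.9, 49.7, 593, 72.2 and 683 at 2 years. Germ-free libraries held 366, 3.60 and 1088 at 2 months and 172 and 1324 at 1 year. The lowest WT library of 2 years (826) was thus above the median of each of the 7 other groups, and no comparison passed the test. The largest difference was between IL1R1 KO and WT at 2 years, -3.55 ± 1.75 (SE, limma adjusted p = 0.447), where 4 WT libraries all lay above 5 IL1R1 KO libraries. The spread of a single group was of the same order as the differences between groups, with SE of 1.75 to 2.38.

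Mzb1 (ENSMUSG00000024353, chr18:35647267-35649367, minus strand) was lower and partly followed Jchain (r = 0.62). Of its 1215 exon bases, 695 are shared with SPATA24 on the same strand, so the authors' counting may have split reads between these genes. SPATA24 was at 0 in 27 libraries and at most at 20.7 normalized counts, and it was above 0 in 1 of the 5 libraries with Mzb1 at 0. In WT it was at 14.2, 22.9, 4.24 and 0 normalized counts at 2 months, at 30.4, 10.7, 9.84, 0 and 4.77 at 1 year and at 35.7, 23.0, 82.6 and 126.8 at 2 years. The 2-year libraries all lay above those of 2 months, although the lowest of them (23.0) was nearly equal to the highest of 2 months (22.9). The difference from 2 months was 3.07 ± 1.30 (SE, limma adjusted p = 0.193) and from 1 year 2.89 ± 1.23 (SE, adjusted p = 1 by limma), in comparisons where 5.55% and 0.0118% of genes were called. With WT 2 months replicates 2 and 4 averaged the first difference was 2.47 (adjusted p = 0.41 by limma), and it was 3.47 (adjusted p = 0.194) without the 3 poorer libraries. In the other groups the gene ranged from 0 to 67.3, and no comparison passed the test.

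Immunoglobulin constant regions, the partners of both genes, set the scale of this RNA. Over the 30 libraries the genes most like Jchain were Ighm and Igkc (r = 0.86 each), the constant regions of IgM and of the kappa light chain, and the gene most like Mzb1 was again Ighm (0.70). In WT at 2 years Ighm was at 24785, 12148, 7372 and 76308 normalized counts and Igkc at 14462, 8224, 9330.1 and 35763. In WT 2 months replicate 3 the same genes were at 262 and 3.83, and in IL1R1 KO 1 year replicate 4 at 28.1 and 6.56. Jchain thus tended to rise and fall with Ighm and Igkc from library to library. Iglc3, the next constant region in likeness to Jchain, correlated with it at 0.68. Of 12 constant-region genes 10 were tested, and limma called 1, Iglc3 (a lambda light-chain constant region), higher in WT at 2 years than at 2 months by 4.31 ± 1.23 (SE, adjusted p = 0.0346). Its values were 0.965, 27.9, 0 and 12.9 normalized counts at 2 months and 57.9, 25.3, 179 and 430 at 2 years, which overlapped. The call was lost without the 3 poorer libraries (3.83, adjusted p = 0.100 by limma) and was kept with the WT pair averaged (4.91, adjusted p = 0.0293). In the other 14 comparisons limma called 0 of the 10, with 0 to 4 at an unadjusted p under 0.05. The median difference of the list in WT between 2 years and 2 months was 3.27, against 0.01 over all tested genes.

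The heavy-chain class differed between libraries of the same group. Igha, the constant region of IgA, was at 10138 and 7325 normalized counts in WT 2 months replicates 2 and 4 and at 16.5 and 2.59 in replicates 1 and 3. Ighg2b, of IgG2b, was at 10034 and 12248 in WT 2 years replicates 1 and 4 and at 0 in replicates 2 and 3. Ighg2c, of IgG2c, was at 7382 in IL1R1 KO 1 year replicate 3, 11998 in germ-free 1 year replicate 2 and 4197 in IL1R1 KO 2 years replicate 5, and at 665 or below elsewhere. Ighg1 was found in 2 libraries only, IL1R1 KO 1 year replicate 3 (1844) and germ-free 1 year replicate 2 (1019), both also high in Ighg2c. It was at 0 in IL1R1 KO 2 years replicate 5, which held 4197 of Ighg2c. Whether reads were shared between the 2 genes was not tested. Ighe, of IgE, was at 0 in all 30 libraries. High levels of a class were thus found in some libraries of a group and not in others.

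**Figure D5:**
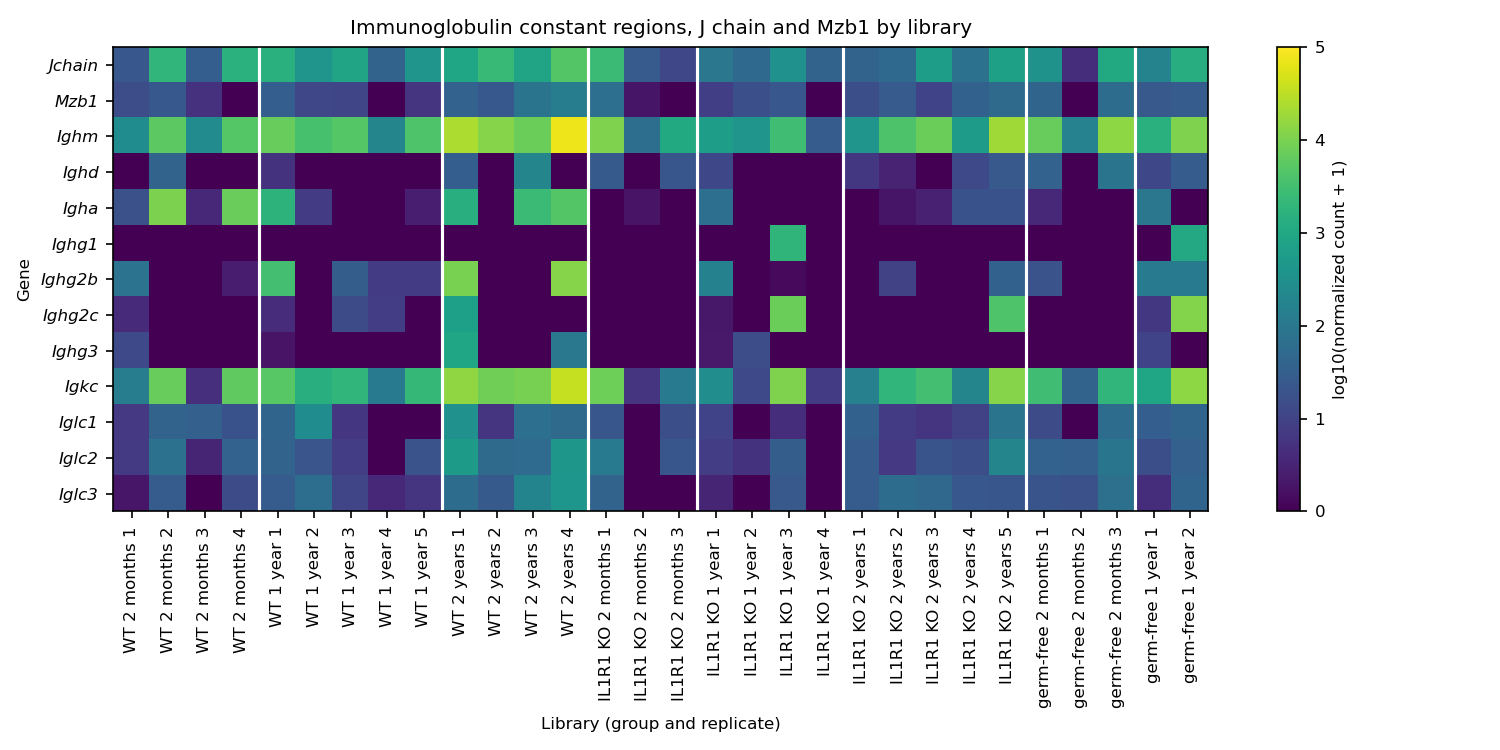
Levels of Jchain, Mzb1 and 11 immunoglobulin constant-region genes in each of the 30 libraries, as log10(normalized count + 1), with white lines between groups. Igha is bright in WT 2 months replicates 2 and 4, Ighg2b in WT 2 years replicates 1 and 4, and Ighg2c in IL1R1 KO 1 year replicate 3 and germ-free 1 year replicate 2.

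The number of variable genes in use also differed between libraries. In IL1R1 KO 2 months replicate 1, Igkv19-93 alone made up 98.6% of the kappa variable signal (5390 normalized counts) and Ighv9-3 made up 66.1% of the heavy-chain signal. In IL1R1 KO 2 years replicate 2, Ighv11-2 made up 90.1% and Igkv4-68 91.0%. In WT 2 years replicate 1, in contrast, 21 heavy and 18 kappa genes were needed to reach 90% of the signal, and the leading genes Ighv6-3 and Igkv1-110 took 23.3% and 20.1%. WT 2 years replicate 4, with the most immunoglobulin RNA of all (0.583% of the library sum), needed 9 and 10 genes. Libraries rich in immunoglobulin RNA thus ranged from 1 leading pair of variable genes to many.

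Of 12 other plasma cell and secretory genes, all tested, 7 calls were made in 6 comparisons, 3 higher and 4 lower. In these 6, from 0.407% to 8.02% of all tested genes were called in either direction. Fkbp11, a secretory-pathway chaperone of plasma cells, was lower in IL1R1 KO than in WT libraries at 2 months, at 251, 227 and 297 against 523, 588, 462 and 669 normalized counts (-1.11 ± 0.24, SE, limma adjusted p = 0.0240). At 1 year the difference was -1.003 ± 0.21 (SE, adjusted p = 0.00954 by limma), and the groups did not overlap at either age. With the WT pair averaged the 2-month difference was -1.05 (adjusted p = 0.0721 by limma) and no longer called. Xbp1, the transcription factor of the secretory programme, rose in IL1R1 KO by 0.54 ± 0.15 (SE, adjusted p = 0.0225 by limma) from 2 months to 2 years and fell by 0.82 ± 0.19 (SE, adjusted p = 0.0149 by limma) from 2 months to 1 year in germ-free mice. Without the 3 poorer libraries, which leaves 1 germ-free library of 1 year, the second of these was -0.84 and no longer called. Xbp1 was at 4010 or more normalized counts in every library, including those at or near 0 for Mzb1. Herpud1, which acts in degradation at the endoplasmic reticulum, rose by 0.63 ± 0.17 (SE, adjusted p = 0.0183 by limma) over the same ages in IL1R1 KO. In the other 9 comparisons limma called 0 of the 12, with 1 to 3 at an unadjusted p under 0.05.

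Lymphoid priming genes mark the first step from HSC to lymphoid progenitor. Of 10 genes, all tested, 11 calls were made in 5 comparisons, 3 higher and 8 lower. In these 5, from 2% to 10.7% of all tested genes were called in either direction. Flt3, the receptor tyrosine kinase of lymphoid-primed progenitors, fell in WT by 1.46 ± 0.34 (SE, adjusted p = 0.00483 by limma) at 1 year. Germ-free libraries of that age held 1581 and 1470 normalized counts against 284 to 685 in WT (2.02 ± 0.42, SE, adjusted p = 0.00640 by limma). Without the 3 poorer libraries, which leaves 1 germ-free library of 1 year, the difference was 1.97 and no longer called. Satb1, a chromatin organiser of lymphoid cells, fell in WT by 1.74 ± 0.49 (SE, adjusted p = 0.0304 by limma) at 2 years, which was lost without the 3 poorer libraries (-1.67, adjusted p = 0.0782) and with the WT pair averaged (-1.83). In the other 10 comparisons limma called 0 of the 10, with 1 to 4 at an unadjusted p under 0.05.

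Over these 6 lists of B-lineage and lymphoid genes limma made 37 calls, with Il7r, which is in 2 of the lists, counted once. All 37 kept their direction under each of the 3 alternatives that concern libraries standing apart. Without the 3 poorer libraries 26 calls were kept, and with the WT pair averaged 31. The calls of Syk, those of Cd37, Il7r and Foxo1, the fall of Siglecg in WT at 1 year and that of Tnfrsf13c in WT at 2 years were kept under both. Without the 6 libraries rich in Mpo, which leaves 2 WT, 1 IL1R1 KO and 1 germ-free library of 2 months, 15 of the 37 calls were kept. Among those lost were all but 1 of the Cd37 calls (the exception was WT at 2 years), Il7r (3.07, adjusted p = 0.112 by limma) and Foxo1 (0.79, adjusted p = 0.181) in IL1R1 KO, and Siglecg in WT at 1 year (-1.85, adjusted p = 0.238). The calls of Syk and of Tnfrsf13c in WT at 2 years were kept there too.

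Among the members themselves, correlations over the 30 libraries were highest for Cd79a with Ms4a1 (r = 0.66) and Igll1 with Vpreb1 (0.65), then for Ebf1 with Igll1 (0.62), Cd79a with Mzb1 (0.62) and Jchain with Mzb1 (0.62). Jchain and Igll1 correlated at -0.01, and Ebf1 and Jchain at -0.06. The level of Jchain thus had no linear relation to those of the early genes Ebf1 and Igll1 over the libraries. IL1R1 KO 2 months replicate 1 held 2526 normalized counts of Jchain and none of Igll1, while germ-free 2 months replicate 3, with the highest Ebf1 (348) and Igll1 (280) of all, held 1088 of Jchain. These correlations describe libraries that share groups, depth and, for some, variable-gene profiles, and no p-value was computed.

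The differences of the age change between genotypes or housing and WT gave 0 calls among the members by limma. These comparisons share libraries with those above. Unadjusted p-values under 0.05 were given by Ebf1 only, -3.90 ± 1.60 (SE, limma adjusted p = 0.392) for IL1R1 KO and -3.84 ± 1.78 (SE, limma adjusted p = 0.443) for germ-free mice, both between 2 months and 1 year. Over all tested genes 0.0354% and 0% were called in these 2 comparisons, and 0.395% in the third, the change of IL1R1 KO to 2 years. The number of members with a positive difference in each of the 3 was 2 of 9 for IL1R1 KO to 1 year, 2 of 9 for germ-free mice and 3 of 9 for IL1R1 KO to 2 years. The share of positive differences over all tested genes was not computed, and these counts are only a description. Without the 3 poorer libraries the Ebf1 values were -4.00 for IL1R1 KO and -3.07 for germ-free mice, and with the WT pair averaged they were -3.46 and -3.40.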

How the data were processed

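RNA of HSCs was copied by Smart-seq2 and tagmented, and reads of 1 end were sequenced, per the labels' protocols; this chemistry does not mark strand. The deposited values are the authors' normalized counts per gene, a signal scale. Salmon 1.2.0.0 and DESeq2 1.26.0, with cutadapt 2.10, FastQC 0.11.9 and the build GRCm38 (mm10), are named in the submitters' processing notes. The values are not whole (10.9% to 18.3% of low values lay within 0.001 of whole reads), so no count model was used. Depth was estimated from the commonest low value of each library, taken as 1 read. Positions come from GENCODE M21 on GRCm38, and symbols matched 35422 of 35727 identifiers.

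Groups follow the title label. Values entered limma 3.58.1 (R 4.3.3) as log2(normalized count + 1), in a group-means model of the 30 libraries. The moderation used a mean trend and was robust. A gene was tested when 3 libraries or more reached 10 (16958 genes). Tests were two-sided at an adjusted p of 0.05 (Benjamini-Hochberg, over the 16958 genes). The method was tested on simulated data. Correlations are Pearson's on the log2 scale, or on normalized counts for the variable genes. Figures were drawn with matplotlib 3.10.9 from tables made with pandas 2.3.3 in Python 3.11.15. Alternatives covered the pseudocount, filter, scaling, weights, moderation, fitted samples, the age label, the replicate block and each library left out. After seeing the data, 3 were added: without the 6 libraries rich in Mpo, with WT 2 months replicates 2 and 4 averaged, and without the 3 libraries with low levels of another library's variable genes.

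The members and the lists were chosen with earlier results of these data known. The lists were early B-cell transcription factors, pre-B receptor with recombination and receptor signalling, mature B-cell surface genes, plasma cell and secretory genes, immunoglobulin constant regions and lymphoid priming, with markers of plasmacytoid dendritic cells, T and NK cells, granulocytes, erythroid cells and HSCs. Named genes were the 9 members, up to 3 called genes per list and comparison (smallest p first), and the 5 genes most correlated with a member. Some genes meeting these criteria are left out of the text. Rag1, Vpreb3, the constant-region and the variable genes were described after their values were seen.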

Additional observations from a re-analysis of the deposited data

Results flagged for a closer look

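In 7 of 45 combinations of a member and a group of 4 or 5 libraries, 1 library stood far from the others by Dixon's test at the 95% level. That level holds for normally distributed values. Where all other libraries of a group are at 0, any value above 0 is flagged, so the number of flags expected by chance is not known. WT 2 months replicate 3 stood out in 3 genes, with Ebf1 at 16.6, Pax5 at 11.6 and Igll1 at 34.2 normalized counts against group medians of 0.616, 0 and 0, and this library was low in Mpo and in immunoglobulin. In the same group, Ms4a1 was at 62.3 in replicate 4 against a median of 47.1. Igll1 also stood out at 32.7 in WT 2 years replicate 1 and at 36.3 in IL1R1 KO 1 year replicate 1, where the other 3 libraries of each group were at 0, and at 140.7 in IL1R1 KO 2 years replicate 5 against a median of 23.6. Groups of 2 or 3 libraries, among them the germ-free groups, were not examined this way.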

How the results depend on the processing

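Over 15 counts of called members, 335 values under alternatives were computed and 315 equalled the main count or were within 1.5 times it. In 14 of the 15 comparisons the main count was 0, so most of these are 0 staying at 0. For the comparison with a call, 6 of the 7 counts with 1 library left out moved. The single call, Ebf1 in germ-free against WT at 2 months, became 0 with a pseudocount of 0.5 (5.70, limma adjusted p = 0.0560), with no filter (0.0538), with array quality weights (5.08, adjusted p = 0.115), with no trend and no robust setting (0.0630), with the age label of IL1R1 KO 1 year replicate 1 followed (0.0534), and with only the groups compared (0.311). It also became 0 without the 6 libraries rich in Mpo (1.60, adjusted p = 0.853), with WT 2 months replicates 2 and 4 averaged (4.67, adjusted p = 0.122) and without the 3 libraries with low levels of another library's variable genes (5.06, adjusted p = 0.0949). It stayed 1 with a pseudocount of 5, the stricter filter and the same library sum. Leaving out each library gave 0 to 2 called members, with Ebf1 at 4.11 to 6.21 (adjusted p = 0.0101 to 0.249). The cause was not tested. With only the groups compared, 1 member was called in IL1R1 KO at 2 years against 2 months (Igll1, limma adjusted p = 0.0159) and 1 against 1 year (Cd79a, limma adjusted p = 0.0219). Without the 6 libraries rich in Mpo, 2 members were called in WT at 2 years against 2 months (Cd79a, 3.59, and Jchain), 1 in IL1R1 KO at 2 years against 1 year and 1 in germ-free mice at 1 year against 2 months (Cd79a in both), and Cd79a (-0.33) and Igll1 (-2.57) turned to lower in germ-free against WT at 2 months, where 1 germ-free library was left and was assumed to vary like the other groups. With 17 member differences of unadjusted p under 0.05, 350 of 371 values kept direction and side of the threshold. Only 1 of the 17 was called in the main analysis, so for the others keeping the side meant staying uncalled. With the replicate number as a block, the count in germ-free against WT at 2 months was 1, and no count of called members moved by over 1.5 times. Same-numbered libraries of different groups deviated together little (88 pairs, r from -0.11 to 0.16). Their median r was 0.0054, against -0.00087 for the other pairs. Of 30 libraries, 11 correlated best with their own number, and no chance level was computed for that count. These values do not settle whether the numbers pair samples, and the main test did not use them. Values near that of 1 read, as for Ebf1, Pax5, Igll1 and Mzb1 in many libraries, limit what could be detected, and so do groups of 2 or 3 libraries.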
